A study of Homo sapiens with 38 samples.

Results

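The proteasome genes of a human lung line were followed through an inflammatory stimulus. The set held every measured gene whose single symbol in the platform annotation began with PSMA, PSMB, PSMC, PSMD, PSME, PSMF or PSMG and went on with a number and nothing else. This gave 39 genes of 11893 measured genes with 1 symbol: 7 alpha and 7 beta subunits of the 20S core, the immunoproteasome subunit PSMB10, 4 ATPase and 9 non-ATPase subunits of the 19S cap, 3 chaperones of the cap's base, 3 chaperones of the core, 4 activators and 1 inhibitor. RefSeq lists 48 protein-coding genes of these families, and the other 9 (PSMA8, PSMB8, PSMB9, PSMB11, PSMC1, PSMC5, PSMD7, PSMD13 and PSMG4) are not analysed here. PSMD4 alone had more than 1 probe set, and the one with the higher mean over all arrays was used.

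The cells were A549, a line from a human lung adenocarcinoma with features of alveolar epithelium. Knockdown cells had received a pool of siRNAs against ORMDL3, which sits in the endoplasmic reticulum membrane and holds back sphingolipid synthesis. The labels call the other cells control and say nothing of what these were transfected with. Both arms were left for 48 h after transfection and 24 h without serum, and were then given 1 ng/ml of the cytokine interleukin 1 beta (IL1B). Knockdown arrays numbered 3 at 0 h and 4 at each of 2, 4, 8 and 10 h. Control arrays numbered 4 at each of 0, 2, 4 and 10 h and 3 at 8 h. The 0 h arrays were untreated, and the later hours had no untreated arrays, so the effects of IL1B and of further time in culture cannot be told apart. Replicates are not said to be separate cultures, so p-values measure only how far these samples spread, and that spread may be technical.

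The proteasome is the protease that degrades proteins tagged with ubiquitin. Its 20S core is a barrel in which outer rings of alpha subunits enclose rings of beta subunits, and the beta subunits PSMB5, PSMB6 and PSMB7 carry the cutting sites. The 19S cap binds ubiquitin chains, removes them and feeds the unfolded protein into the core with the help of its ATPases. Under inflammatory cytokines, PSMB8, PSMB9 and PSMB10 can take the places of the constitutive cutting subunits and form the immunoproteasome, and the activator PA28, built from PSME1 and PSME2, can open the core. Both are known for making peptides that MHC class I molecules present.

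Levels are the deposited log2 values, and changes are differences of such values. A gene is called when limma's p is under 0.05 after Benjamini-Hochberg adjustment across the 14488 probe sets measured, and ± after a change is the standard error of that model. ORMDL3 lay between 5.00 and 5.57 in the knockdown arrays, against 6.78 to 7.77 in the control arrays, with no overlap at any hour (exact two-sided permutation p = 0.0286 at each hour, the smallest possible). The epithelial keratins KRT8 and KRT18 had mean levels of 13.03 and 12.49. Of 10 lung epithelial markers 7 were measured, and with IL1B 1 rose and 5 fell in each arm. LAMP3 rose by 2.28 ± 0.08 in knockdown and by 2.37 ± 0.07 in control cells, and KRT8, KRT18, KRT19, CDH1 and EPCAM fell, with changes of -0.69 to -0.23 in knockdown and -0.81 to -0.31 in control cells. EPCAM lay below the lower quartile of the array on 15 arrays. In knockdown against control cells KRT19 (0.60 ± 0.04) and ABCA3 (0.27 ± 0.05) were higher and EPCAM (-0.19 ± 0.06) lower. The leukocyte markers read here were ITGAM, CD14 and CD68. Of these ITGAM rose with IL1B, by 0.30 ± 0.07 in knockdown cells and by 0.61 ± 0.07 in control cells, and CD14 and CD68 were not called. The probe set of ITGAM lay below the lower quartile on 17 of 38 arrays. CD68 was higher in knockdown than in control cells, by 0.14 ± 0.04. Of 6 fibroblast and endothelial markers 2 were measured, and CDH5 rose by 1.31 ± 0.10 in knockdown cells and by 1.13 ± 0.09 in control cells, from a probe set below the lower quartile on 29 of 38 arrays. COL1A1 had changes of 0.07 ± 0.09 and 0.01 ± 0.08 in these arms without a call. The part of any other cell type in the results was not tested. Of the 39 proteasome genes, 36 stood above the median probe set on all 38 arrays, and the exceptions were PSMB10, PSMD4 and PSMD9.

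The arrays divided into 16 and 22 in a way that no label describes. The division was first noticed in PSMB6, one of the genes studied, and was then read from other probe sets, of which 8 split the arrays in exactly this way. Knockdown arrays made up 10 of the 16 and control arrays 6. The 16 arrays, called the second array set here, held at least 1 array of every group except control 8 h. PSMB6 lay between 12.00 and 12.36 in the second set, against 12.63 to 12.92 in the first set of 22. PSMB4, a structural beta subunit, lay between 10.35 and 10.78 in the second set, against 10.83 to 11.22 in the first. Neither gene's levels overlapped between the sets, which for PSMB6 follows from how the division was noticed. Within groups, the second set was lower by 0.55 for PSMA6, by 0.50 for PSMD9 and by 0.24 for PSMD11, and higher by 0.26 for PSMA7. It was lower for 27 of the 39 genes, with a median difference of -0.06 (-0.01 over all probe sets). No label or header used here says what the sets are, and results that move with them are given with the array set as a block as well.

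Over the mean of 4 hours in knockdown cells, IL1B raised 5 of the 39 genes and lowered 2, which is 17.9% of them, while 31.1% of all probe sets were called (12.1% up and 19.0% down). In control cells it raised 10 and lowered 1, or 28.2%, while 39.3% of all probe sets were called (18.1% up and 21.2% down). With both directions together, both shares of the proteasome genes lay below those of all probe sets. Counted up alone, the share lay just above that of all probe sets in knockdown cells (5 of 39 beside 12.1%). It lay above in control cells (10 of 39 beside 18.1%). Counted down alone, it lay below in both arms (2 and 1 of 39 beside 19.0% and 21.2%). The largest called changes in control cells were those of PSMB10, PSMA6, PSME2, PSME1 and PSMA3. The median change of the 39 genes was 0.02 in knockdown cells and 0.10 in control cells, against -0.04 and -0.02 over all probe sets in the same arms. Above 0 were 22 of the 39 in knockdown cells and 32 in control cells, and with quantile normalization 20 and 24. With the array set as a block, 6 rose and 2 fell in knockdown cells (34.2% of all probe sets called). In control cells the block gave 14 up and 2 down (44.2% of all probe sets called).

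**Figure D1:**
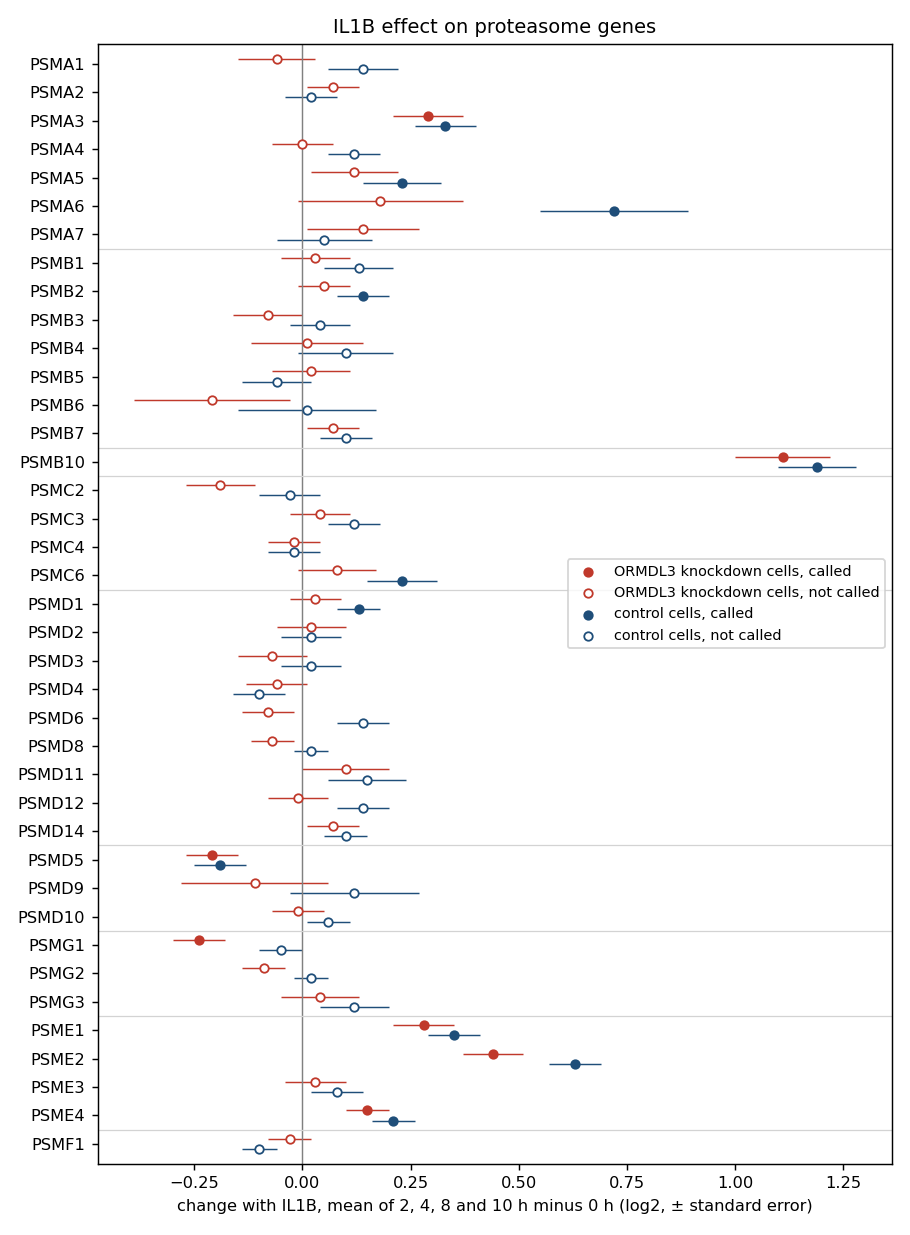
Change with IL1B in each of the 39 proteasome genes, as the mean of 2, 4, 8 and 10 h minus 0 h on the log2 scale with its standard error, in knockdown cells (red, upper point) and control cells (blue, lower point). Filled points were called. PSMB10 lies near 1.1 to 1.2 in both arms, and PSMA6 has its filled point in control cells.

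PSMB10, the immunoproteasome counterpart of the trypsin-like subunit PSMB7, changed most. In knockdown cells its levels were 6.81, 6.86 and 6.89 at 0 h, 7.82, 8.26, 8.08 and 8.02 at 2 h, 8.15, 8.17, 8.18 and 8.30 at 4 h, 7.83, 7.93, 7.60 and 7.89 at 8 h, with 7.84, 7.49, 7.82 and 8.05 at 10 h. In control cells they were 6.69, 6.78, 6.94 and 7.20 at 0 h, 7.99, 7.95, 8.12 and 7.88 at 2 h, 8.36, 8.20, 8.28 and 8.78 at 4 h, 7.94, 8.26 and 7.85 at 8 h, with 7.99, 7.86, 8.06 and 7.99 at 10 h. In both arms each IL1B array lay above each 0 h array. The mean rise was 1.11 ± 0.11 in knockdown cells (adjusted p = 2.47e-10), a fold of 2.16. In control cells it was 1.19 ± 0.09 (adjusted p = 1.82e-12), a fold of 2.29. The rise was largest at 4 h, with 1.35 ± 0.13 in knockdown cells and 1.5 ± 0.12 in control cells. Contrasts between neighbouring hours were added after the data were seen. Between 2 and 4 h 3 of the 39 genes rose and 0 fell in knockdown cells (14.6% of all probe sets called), and 3 rose and 0 fell in control cells (13.4%). PSMB10 was among the called genes in control cells, with a rise of 0.42 (adjusted p = 0.0138). In knockdown cells its change of 0.16 over this step was not called (adjusted p = 0.428). Between 4 and 8 h 3 rose and 3 fell in knockdown cells (22.5%), and 3 rose and 1 fell in control cells (21.1%). PSMB10 fell by 0.39 between 4 and 8 h in knockdown cells (adjusted p = 0.0148) and fell by 0.38 in control cells (adjusted p = 0.0282). Within each set alone the call stood in both arms, with changes of 1.02 to 1.24.

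**Figure D2:**
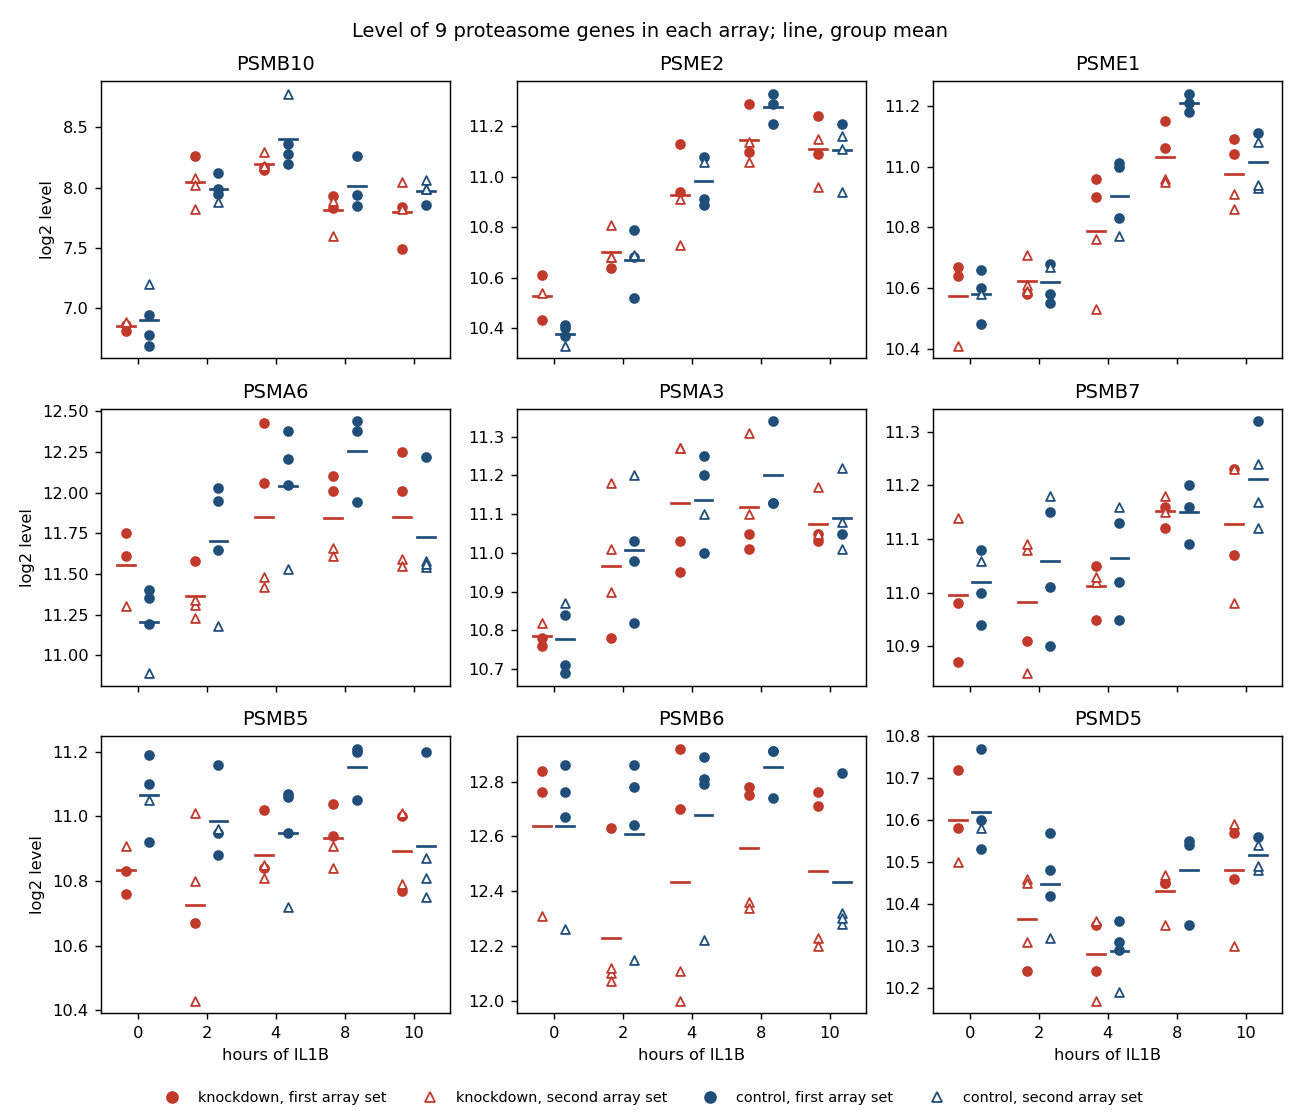
Log2 level of 9 proteasome genes in every array, by hours of IL1B, with knockdown arrays (red) left of control arrays (blue), a line for each group mean, filled circles for the first array set and open triangles for the second. PSMB10 steps up by 2 h and is highest at 4 h, PSME2 and PSME1 are highest at 8 h, and the triangles of PSMB6 lie below all its circles.

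The constitutive cutting subunits were not called over the mean of the hours in either arm. PSMB7 had a change of 0.07 ± 0.06 in knockdown cells and of 0.10 ± 0.06 in control cells over the mean of 4 hours, neither of them called. It was called at 10 h in control cells (0.19 ± 0.07, adjusted p = 0.0305). PSMB5, the chymotrypsin-like subunit, had a change of 0.02 ± 0.09 in knockdown and of -0.06 ± 0.08 in control cells, and PSMB6, the caspase-like subunit, of -0.21 ± 0.18 and 0.01 ± 0.16 in the same arms, none of them called. The standard error of PSMB6 was smaller with the array set as a block, where its change was -0.09 ± 0.05 in knockdown cells and 0.04 ± 0.05 in control cells, again not called. That smaller error follows from how the division was noticed, in PSMB6 itself. Within arrays, PSMB10 minus PSMB7 was higher at every IL1B hour than at 0 h. The shifts were 1.21, 1.33, 0.80 and 0.81 at 2, 4, 8 and 10 h in knockdown cells, and 1.04, 1.45, 0.99 and 0.88 in control cells. In each of these 8 comparisons the arrays of the IL1B hour and of 0 h did not overlap (exact two-sided permutation p = 0.0286, 0.0286 after Benjamini-Hochberg adjustment over the 8, the smallest possible). Of the remaining beta subunits, PSMB2 rose in control cells (0.14 ± 0.06, adjusted p = 0.0422), and PSMB1, PSMB3 and PSMB4 lay between -0.08 and 0.13 over both arms without a call.

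The activators divided. PSME1 and PSME2, which form PA28, and PSME4 (PA200), a nuclear activator, rose in both arms, and PSME3, the nuclear PA28 gamma, had a change of 0.03 ± 0.07 in knockdown and 0.08 ± 0.06 in control cells without a call. PSME2 stood at 10.61, 10.43 and 10.54 at 0 h in knockdown cells, then at 10.68, 10.64, 10.81 and 10.68 at 2 h, 11.13, 10.94, 10.73 and 10.91 at 4 h, 11.29, 11.10, 11.06 and 11.14 at 8 h, with 11.24, 11.09, 10.96 and 11.15 at 10 h. In control cells it stood at 10.37, 10.41, 10.40 and 10.33 at 0 h, then at 10.79, 10.52, 10.68 and 10.69 at 2 h, 10.89, 10.91, 11.08 and 11.06 at 4 h, 11.29, 11.21 and 11.33 at 8 h, with 10.94, 11.21, 11.16 and 11.11 at 10 h. Each IL1B array lay above each 0 h array in both arms. The mean change of PSME2 was 0.44 ± 0.07 in knockdown cells (adjusted p = 4.08e-06) and 0.63 ± 0.06 in control cells (adjusted p = 2.19e-10). That of PSME1 was 0.28 ± 0.07 (adjusted p = 0.00206) and 0.35 ± 0.06 (adjusted p = 2e-05) in the same arms. PSME4 had a change of 0.15 ± 0.05 (adjusted p = 0.0387) in knockdown cells and of 0.21 ± 0.05 (adjusted p = 0.000966) in control cells. The call of PSME4 in knockdown cells was lost with quantile normalization (0.12, adjusted p = 0.0973), with the knockdown arm fitted alone (adjusted p = 0.0732), with a fixed replicate block (adjusted p = 0.0508) or that block and the array set (adjusted p = 0.0657), and in the first array set alone (adjusted p = 0.0966) or the second (0.08, adjusted p = 0.672).

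The PA28 genes were highest at 8 h, later than PSMB10. At 2 h the change of PSME1 was 0.05 ± 0.08 in knockdown and 0.04 ± 0.08 in control cells, neither called, and at 8 h it had risen by 0.46 ± 0.08 and 0.63 ± 0.08. Its levels at 2 h were 10.71, 10.58, 10.61 and 10.59 in knockdown cells and 10.68, 10.55, 10.58 and 10.67 in control cells. At 8 h they were 11.15, 11.06, 10.96 and 10.95 in knockdown cells and 11.18, 11.24 and 11.21 in control cells, all above every 2 h array. Between 4 and 8 h, when PSMB10 fell, PSME1 rose by 0.24 in knockdown cells (adjusted p = 0.0219) and by 0.31 in control cells (adjusted p = 0.00694). PSME2 rose over the same step by 0.22 (adjusted p = 0.0353) and by 0.29 (adjusted p = 0.00968). No gene of the 39 was called between 8 and 10 h in either arm, where 2.33% of all probe sets were called in knockdown cells and 2.88% in control cells. The call of PSME1 in knockdown cells was lost without knockdown 0 h replicate 4 (0.20, adjusted p = 0.061), whose level of 10.41 was the lowest of its group. That of PSME4 in knockdown cells was lost without knockdown 0 h replicate 1 (0.13, adjusted p = 0.176), 0 h replicate 2 (0.12, adjusted p = 0.219) or 4 h replicate 3 (0.14, adjusted p = 0.05).

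Promoter sequences are shown for the induced genes PSMB10, PSME2 and PSME1, and for PSMB4 and PSMA4, which hold the same motif. They are the 250 bases before the start of the gene from RefSeq, build GRCh38.p14, printed 5′ to 3′ on the strand of the gene. PSMB10 is at chr16:67936851-67937100 on the minus strand, PSME2 at chr14:24146611-24146860 on the minus strand, PSMB4 at chr1:151399323-151399572 on the plus strand, PSMA4 at chr15:78540155-78540404 on the plus strand and PSME1 at chr14:24135944-24136193 on the plus strand. Capitals mark the motif of interferon-stimulated response elements, GAAA followed after 2 further bases by GAAA, to which interferon regulatory factors such as IRF1 bind. PSME1 has no capitals, since its window holds no match.

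PSMB10: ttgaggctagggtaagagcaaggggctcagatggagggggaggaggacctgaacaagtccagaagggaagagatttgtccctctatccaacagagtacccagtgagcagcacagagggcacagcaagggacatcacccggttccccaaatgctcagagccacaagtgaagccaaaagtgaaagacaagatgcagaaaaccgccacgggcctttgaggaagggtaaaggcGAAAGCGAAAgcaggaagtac
PSME2: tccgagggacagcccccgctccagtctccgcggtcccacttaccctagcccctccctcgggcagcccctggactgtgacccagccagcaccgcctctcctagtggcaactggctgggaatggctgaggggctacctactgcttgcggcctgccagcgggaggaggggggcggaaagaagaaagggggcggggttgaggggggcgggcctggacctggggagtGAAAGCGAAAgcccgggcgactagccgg
PSMB4: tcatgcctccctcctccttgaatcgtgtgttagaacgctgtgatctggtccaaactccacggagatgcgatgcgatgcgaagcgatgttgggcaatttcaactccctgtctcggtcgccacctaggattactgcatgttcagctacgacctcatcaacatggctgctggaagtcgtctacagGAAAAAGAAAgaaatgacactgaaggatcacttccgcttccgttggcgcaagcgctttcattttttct
PSMA4: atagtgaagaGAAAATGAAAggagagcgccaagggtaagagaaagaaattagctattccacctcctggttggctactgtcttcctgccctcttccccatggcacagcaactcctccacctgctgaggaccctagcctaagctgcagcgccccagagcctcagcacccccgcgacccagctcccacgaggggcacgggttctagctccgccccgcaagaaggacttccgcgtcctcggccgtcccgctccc
PSME1: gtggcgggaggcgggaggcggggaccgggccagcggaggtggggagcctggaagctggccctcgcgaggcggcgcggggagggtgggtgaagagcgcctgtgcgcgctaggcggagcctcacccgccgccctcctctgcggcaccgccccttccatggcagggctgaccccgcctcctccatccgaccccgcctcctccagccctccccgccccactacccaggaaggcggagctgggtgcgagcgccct

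RefSeq gave a promoter for 33 of the 39 genes, and both strands were searched. PSMA6 and PSMB7 were among the genes without a promoter and were not searched. The interferon motif stood in 4 of the 33 (12.1%), against 3.07% of 27305 promoters of the same length. PSMB10 and PSME2 carry it in the same letters, GAAAGCGAAA, at 21 to 12 and at 28 to 19 bases before the start. PSMB4 carries it as GAAAAAGAAA at 68 to 59 bases and PSMA4 as GAAAATGAAA at 240 to 231 bases before the start. PSMB4 had a change of 0.01 ± 0.13 in knockdown and 0.10 ± 0.11 in control cells with IL1B, and PSMA4 of -0.00 ± 0.07 and 0.12 ± 0.06, none of them called. With the array set as a block PSMA4 was called in control cells (0.13 ± 0.05, adjusted p = 0.0385). The kappaB motif, to which NF-kB binds, stood in 0 of the 33 windows searched, which do not include PSMA6, against 5.05% of all. The CCAAT box, bound by NF-Y, stood in 14 (42.4%), against 33% of all, and the core of the antioxidant response element, TGACNNNGC, to which NFE2L1 and NFE2L2 bind, in 10 (30.3%), against 11% of all, with matches in PSME1, PSME2, PSME4, PSMD5 and PSMG1 among them. No match of the interferon motif overlapped a match of another motif. A match describes the letters and is not a site.

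In the alpha ring, which gates the entrance of the core, PSMA6, PSMA3 and PSMA5 of the 7 genes rose in control cells and PSMA3 in knockdown cells. PSMA3 rose by 0.29 ± 0.08 in knockdown cells (adjusted p = 0.00452) and by 0.33 ± 0.07 in control cells (adjusted p = 0.000234). In knockdown cells it was not called in the first array set alone (0.19, adjusted p = 0.0864) or in the second (0.34, adjusted p = 0.119). PSMA5 had a change of 0.12 ± 0.10 in knockdown cells without a call and of 0.23 ± 0.09 in control cells (adjusted p = 0.0345). The levels of PSMA6 moved with the array set. In knockdown cells its first-set arrays had 11.75 and 11.61 at 0 h, 11.58 at 2 h, 12.43 and 12.06 at 4 h, 12.10 and 12.01 at 8 h, with 12.01 and 12.25 at 10 h. In control cells they had 11.35, 11.19 and 11.40 at 0 h, 12.03, 11.65 and 11.95 at 2 h, 12.21, 12.05 and 12.38 at 4 h, 12.44, 11.94 and 12.38 at 8 h, and 12.22 at 10 h. The second-set arrays had 11.30 at 0 h and 11.23 to 11.66 at the IL1B hours in knockdown cells, against 10.89 at 0 h and 11.18 to 11.58 at the IL1B hours in control cells. In control cells each IL1B array thus lay above each 0 h array of its own set.

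PSMA6 had a change of 0.18 ± 0.19 in knockdown cells without a call, and of 0.72 ± 0.17 in control cells (adjusted p = 0.000849). With the array set as a block the changes were 0.30 ± 0.09 (adjusted p = 0.0117) and 0.76 ± 0.08 (adjusted p = 4.94e-09). With a covariate for small nucleolar RNA the change in control cells was 0.40 (adjusted p = 0.0485). The call in control cells held in the first set alone (0.83 ± 0.12) and in the second alone (0.53 ± 0.09), and in knockdown cells the changes of 0.32 ± 0.14 and 0.19 ± 0.08 in these sets were not called. The difference between the arms, knockdown minus control, was -0.55 ± 0.25 (adjusted p = 0.471) and with the block -0.45 ± 0.13 (adjusted p = 0.116), so that an unequal response was not shown. At 0 h PSMA6 was higher in knockdown cells by 0.39 ± 0.11 with the block (adjusted p = 0.0362) and by 0.34 ± 0.23 without it (adjusted p = 0.528). In RefSeq PSMA6 lies on chromosome 14 between the protein-coding genes PRORP and NFKBIA, the inhibitor of NF-kB that NF-kB itself induces. PSME1 and PSME2 lie on the same chromosome with EMC9 between them, preceded by FITM1 and followed by RNF31 and the interferon regulator IRF9. PSMB5, also there, lies between C14orf93 and PSMB11, and PSMB10, on chromosome 16, between CTRL and LCAT. Whether position bears on any of the changes was not tested.

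**Figure D3:**
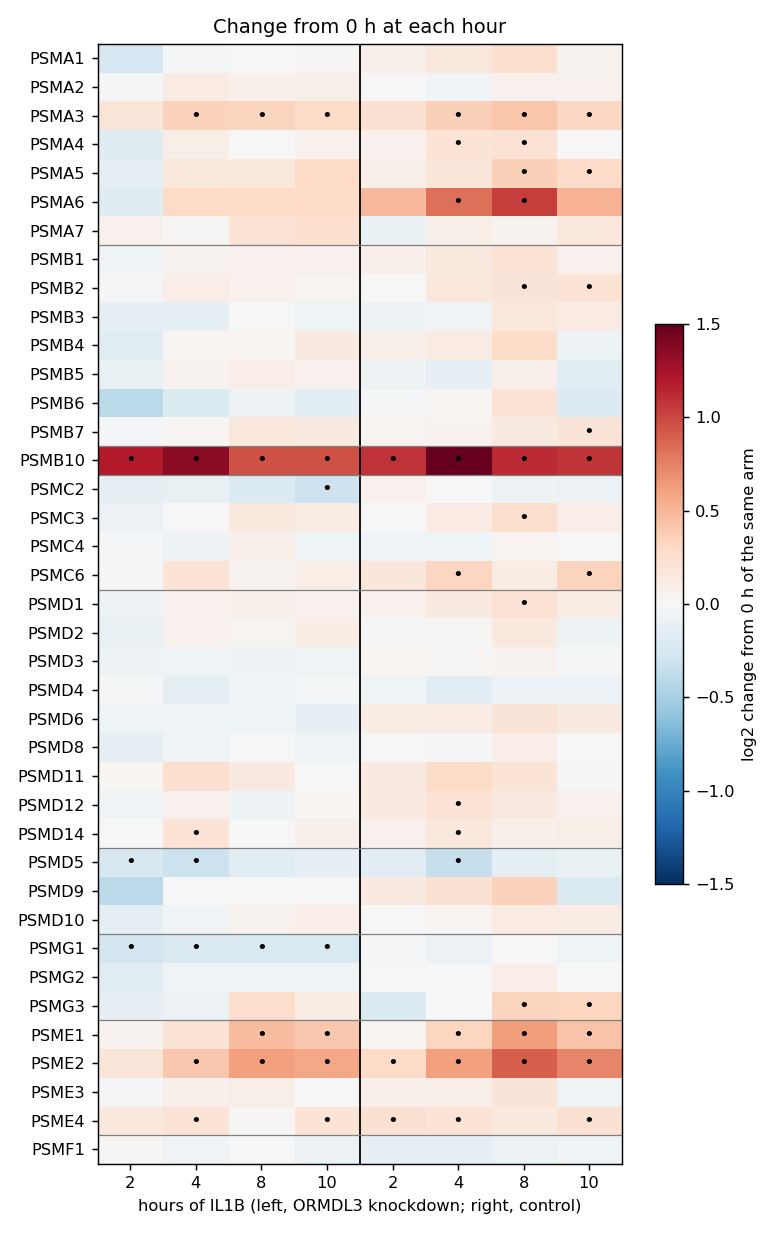
Log2 change from 0 h of the same arm for the 39 proteasome genes at 2, 4, 8 and 10 h of IL1B, knockdown cells in the 4 columns on the left and control cells in the 4 on the right. Dots mark calls, the colour scale runs to the largest change, 1.5, in both directions, and grey lines part the classes. PSMB10 and PSME2 are the deepest red rows in both arms, with PSMA6 in control cells.

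The 19S cap moved little. Of its 4 ATPases, which unfold the substrate, PSMC6 rose in control cells (0.23 ± 0.08, adjusted p = 0.0166) and 0 were called in knockdown cells. PSMC2 fell in knockdown cells at 10 h of IL1B, with a change of -0.31 ± 0.09 (adjusted p = 0.0148). Of the 9 non-ATPase subunits PSMD1, the large scaffold of the base, rose in control cells (0.13 ± 0.05, adjusted p = 0.0299), and 0 were called in knockdown cells, where they lay between -0.08 and 0.10. PSMD14, the enzyme that cuts the ubiquitin chain off the substrate, rose at 4 h alone, by 0.20 ± 0.07 in knockdown cells (adjusted p = 0.0278) and by 0.16 ± 0.06 in control cells (adjusted p = 0.0382). At its lower probe set PSMD4, a ubiquitin receptor, had a change of -0.02 ± 0.12 in knockdown and 0.08 ± 0.11 in control cells, and at the one used of -0.06 ± 0.07 and -0.10 ± 0.06, none called.

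Over the mean of the hours, the genes that fell were the assembly chaperones PSMD5 in both arms and PSMG1 in knockdown cells. PSMD5, a chaperone of the cap's base, had 10.72, 10.58 and 10.50 at 0 h in knockdown cells and 10.35, 10.24, 10.36 and 10.17 at 4 h. In control cells it had 10.77, 10.60, 10.53 and 10.58 at 0 h and 10.29, 10.36, 10.31 and 10.19 at 4 h. The 4 h arrays lay below the 0 h arrays in both arms. Over the 4 hours its change was -0.21 ± 0.06 in knockdown cells (adjusted p = 0.0102) and -0.19 ± 0.06 in control cells (adjusted p = 0.0086). The first call was lost without knockdown 0 h replicate 1 (-0.15, adjusted p = 0.157) and the second without control 0 h replicate 1 (-0.14, adjusted p = 0.0865), each the highest of its group. PSMG1, a chaperone of the alpha ring, fell in knockdown cells, with a change of -0.24 ± 0.06 (adjusted p = 0.0024), with 9.56, 9.52 and 9.58 at 0 h, 9.18, 9.14, 9.41 and 9.38 at 2 h, with 9.40, 9.37, 9.25 and 9.29 at 10 h. In control cells it had a change of -0.05 ± 0.05 without a call, and the difference of the arms was -0.19 ± 0.08 (adjusted p = 0.444). PSMG3, another chaperone of the core, rose in control cells at 8 h (0.33 ± 0.11, adjusted p = 0.0133) and 10 h (0.32 ± 0.10, adjusted p = 0.00969), and its changes of 0.26 ± 0.11 and 0.11 ± 0.11 at these hours in knockdown cells were not called. PSMF1, which inhibits the core, had a change of -0.03 ± 0.05 in knockdown cells and of -0.10 ± 0.04 in control cells without a call, and was called in control cells with the array set as a block (adjusted p = 0.0326).

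By hour, IL1B raised 1 gene and lowered 2 in knockdown cells after 2 h (23.4% of all probe sets called), 5 and 2 after 4 h (30.1%), 4 and 1 after 8 h (28.9%), and 5 and 2 after 10 h (25.5%). In control cells it raised 3 and lowered 0 after 2 h (20.0% of all probe sets called), 10 and 1 after 4 h (37.9%), 11 and 0 after 8 h (34.3%), and 10 and 0 after 10 h (34.7%). With the array set as a block the counts up and down in knockdown cells were 1 and 2 after 2 h (24.9% of all probe sets called), 8 and 2 after 4 h (34.5%), 5 and 1 after 8 h (33.3%), then 7 and 2 after 10 h (29.9%). In control cells the block gave 5 and 0 after 2 h (24.4%), 11 and 2 after 4 h (42.7%), 14 and 0 after 8 h (38.7%), then 11 and 0 after 10 h (37.7%). These comparisons share the 0 h arrays of their arm. At 2 h without the block the called genes were PSMB10, PSMD5 and PSMG1 in knockdown cells, and PSMB10, PSME2 and PSME4 in control cells.

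The comparison of the arms asked which proteasome genes differed with ORMDL3 knocked down. Over the mean of 5 hours 4 of the 39 (10.3%) were lower in knockdown cells and 0 higher, while 23.0% of all probe sets were called (10.9% up and 12.1% down). They were the cutting subunit PSMB5, the core subunit PSMB2, the ATPase PSMC2 and the cap subunit PSMD11, and their changes were small, between -0.16 and -0.10. Of the 39 changes 36 were below 0, with a median of -0.05, against -0.01 over all probe sets, and with quantile normalization 34 were below 0. With the array set as a block the same 4 genes were called, and no others, and PSMB5 lost its call when the replicate number was added to the block (-0.12, adjusted p = 0.0693). The array set alone gave 36 changes below 0 and a median of -0.04 (23.5% of all probe sets called). In the first array set alone 38 changes were below 0, and in the second alone 23 were, with some groups of 1 array in each set.

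PSMB5 stood at 10.83, 10.76 and 10.91 in knockdown cells at 0 h, against 11.19, 10.92, 11.10 and 11.05 in control cells. At 2 h it stood at 10.43, 10.67, 10.80 and 11.01 in knockdown cells, against 10.88, 10.95, 11.16 and 10.96 in control cells. At 8 h the levels were 10.94, 11.04, 10.84 and 10.91 in knockdown cells and 11.20, 11.21 and 11.05 in control cells. The arms did not overlap at 0 h and 8 h and did at 2 h. At 4 h the knockdown arrays had 10.81 to 11.02 and the control arrays 10.72 to 11.07, and at 10 h they had 10.77 to 11.01 and 10.75 to 11.20, with overlap at both hours. The mean difference was -0.16 ± 0.05 (adjusted p = 0.0121). It was -0.23 ± 0.05 in the first array set alone, where it was called, and -0.03 ± 0.09 in the second, where it was not.

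The mean difference was -0.10 ± 0.03 for PSMB2 (adjusted p = 0.0182), -0.13 ± 0.04 for PSMC2 (adjusted p = 0.0224) and for PSMD11 -0.15 ± 0.05 (adjusted p = 0.0321). PSMC2 had 11.02, 11.00, 10.99 and 10.85 in knockdown cells at 10 h, against 11.23, 11.16, 11.23 and 11.10 in control cells, without overlap. At 0 h it had 11.36, 11.27 and 11.19 in knockdown cells and 11.37, 11.23, 11.30 and 11.18 in control cells, with overlap. It was no longer called once control 8 h replicate 1 was left out (-0.10, adjusted p = 0.0577), an array at 11.45 whose fellows had 11.04 and 11.09. That of PSMD11 was lost without any of 8 single arrays, with changes of -0.14 to -0.11 (adjusted p = 0.0504 to 0.0861). These were control 4 h replicates 1 and 3, control 8 h replicate 1 and the replicates numbered 4 of each knockdown hour. The difference of PSMD11 was -0.10 ± 0.04 with the array set as a block (adjusted p = 0.0433), -0.07 in the first set alone (adjusted p = 0.248) and -0.14 in the second (adjusted p = 0.332), neither of these called. The larger difference of PSMB6, -0.18 ± 0.09 (adjusted p = 0.172), and that of PSMD9, -0.22 ± 0.09 (adjusted p = 0.0725), were not called and became -0.06 ± 0.03 and -0.11 ± 0.04 with the array set as a block. The division was noticed in PSMB6, so the move of PSMB6 with the block is no separate evidence on the sets. PSMB10 (-0.11 ± 0.05, adjusted p = 0.136), PSME1 (-0.07 ± 0.04) and PSME2 (-0.00 ± 0.04) were not called either.

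**Figure D4:**
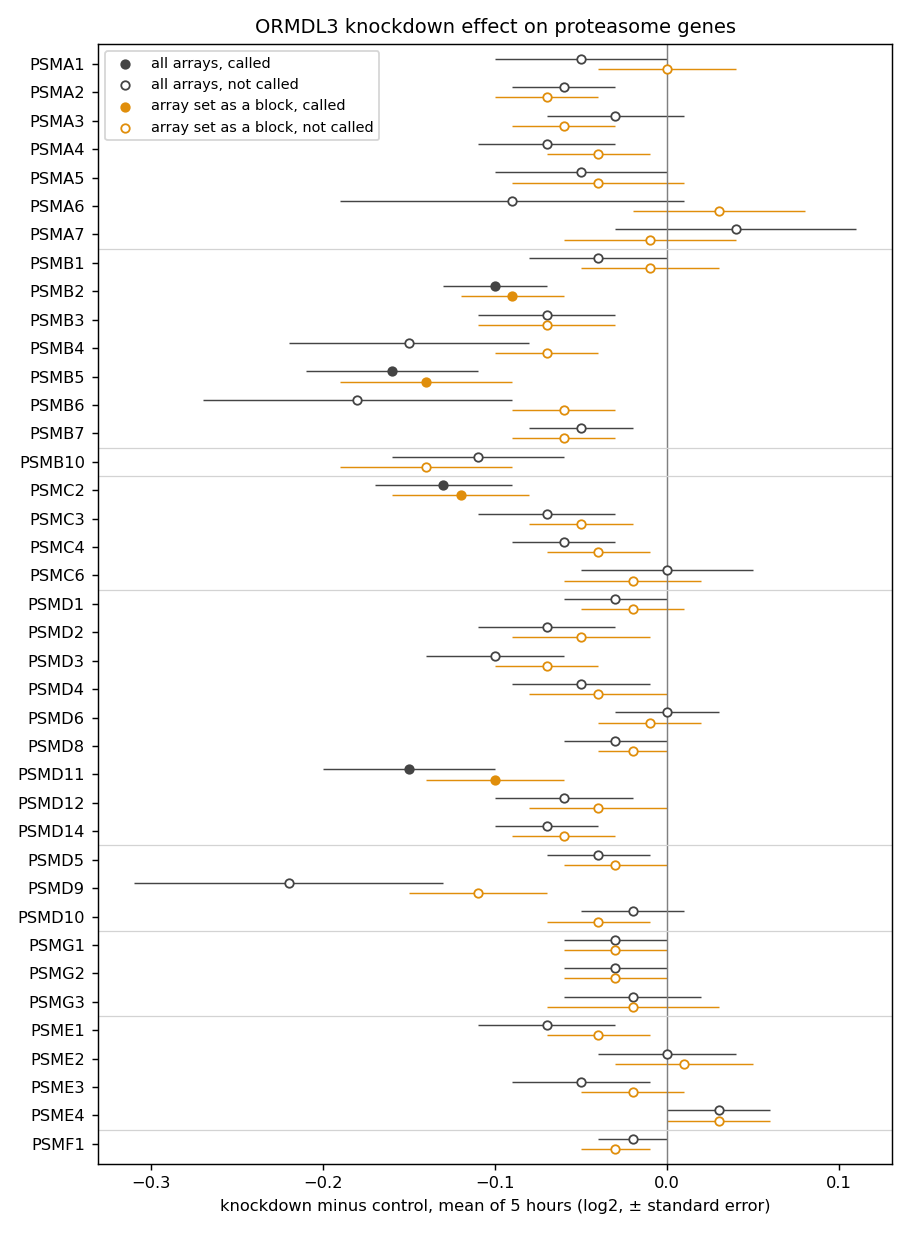
Knockdown minus control in each of the 39 proteasome genes, as the mean of 5 hours on the log2 scale with its standard error, without the array set (grey, upper point) and with the array set as a block (orange, lower point). Filled points were called. Most points lie just below 0, PSMB2, PSMB5, PSMC2 and PSMD11 are filled in both fits, and PSMB6, PSMB4 and PSMD9 move towards 0 with the block.

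Without the array set in the fit, 0 of the 39 genes were called for knockdown by limma at 0, 2, 4, 8 or 10 h, while 3.31%, 6.18%, 1.84%, 2.88% and 2.28% of all probe sets were. At an unadjusted p under 0.05, which chance alone gives in about 1 gene in 20, there were 2, 6, 0, 4 and 2 of them. The share of all probe sets at that unadjusted threshold is not given here, so these counts are not read as a result about the proteasome genes. The fit with the array set as a block called PSMA6 at 0 h, as given above (5.59% of all probe sets called), and 0 genes at the other hours. The number of genes with a change below 0 was 19 of 39 at 0 h, 31 at 2 h, 34 at 4 h, 36 at 8 h and 23 at 10 h, with medians of 0.00, -0.10, -0.06, -0.12 and -0.01. Over all probe sets the medians at these hours were 0.01, -0.01, -0.00, -0.03 and -0.01. With the array set as a block 17, 32, 32, 36 and 28 genes were below 0, with medians of 0.00, -0.08, -0.05, -0.10 and -0.03. Knockdown at 2 h had 3 of its 4 arrays in the second array set, against 1 of 4 in control cells, and control cells at 8 h had none.

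The difference of the 2 IL1B effects asked whether the arms responded unequally. In limma's joint F test over the 4 hours 0 of the 39 genes were called, while 0.166% of all probe sets were, and 0 had an unadjusted p under 0.05. At 2, 4, 8 and 10 h 0 were called, while 0.0276%, 0.0690%, 0.228% and 0.0828% of all probe sets were. At these hours 4, 0, 5 and 1 had an unadjusted p under 0.05, which chance alone gives in about 1 gene in 20. For these counts too the share of all probe sets is not given, and no result about the proteasome genes is read from them. The mean difference of PSMB10 was -0.08 ± 0.14, that of PSME2 -0.19 ± 0.09 (adjusted p = 0.478) and that of PSME1 -0.08 ± 0.09. A p that misses the threshold does not show that the arms responded alike. With the array set as a block 0 genes were called in the joint test, while 0.373% of all probe sets were.

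Genes that work with the proteasome were read from lists. Of 32 ubiquitin and proteasome companions 26 were measured, and IL1B raised 3 and lowered 3 in knockdown cells, and raised 11 and lowered 2 in control cells, beside 31.1% and 39.3% of all probe sets called in these arms. NUB1, which brings the ubiquitin-like protein NEDD8 and its targets to the proteasome, had a change of 0.35 ± 0.10 in knockdown and of 0.60 ± 0.09 in control cells. The core chaperone POMP had a change of 0.12 ± 0.05 in knockdown cells without a call and rose by 0.16 ± 0.05 in control cells (adjusted p = 0.00676). AKIRIN2, an adaptor for nuclear import of proteasomes, fell by 0.26 in knockdown cells and by 0.16 in control cells. Knockdown lowered 2 of the 26, the segregase cofactor UFD1 (-0.13 ± 0.04) and the ubiquitin receptor ADRM1 (-0.10 ± 0.04), and raised 0, while 23.0% of all probe sets were called.

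Of 21 genes of MHC class I antigen processing 9 were measured, and 3 rose in knockdown cells and 4 in control cells with IL1B, beside 12.1% and 18.1% of all probe sets up in these arms. The risen genes include ERAP2 in both arms and NLRC5 in control cells, which lay below the lower quartile of the array on 38 and 30 of the 38 arrays and are not shown to be above background. B2M, the light chain of MHC class I, rose by 0.54 ± 0.09 in knockdown cells and by 0.81 ± 0.08 in control cells. The aminopeptidase ERAP1, which trims peptides from the proteasome, rose by 0.43 ± 0.07 and by 0.69 ± 0.06 in these arms. Knockdown raised 1 of the 9, CALR (0.07 ± 0.02), and lowered 1, THOP1 (-0.11 ± 0.04), while 23.0% of all probe sets were called. Of 24 transcription factors known to act on proteasome or immunoproteasome genes 18 were measured, and IL1B raised 10 and lowered 2 in knockdown cells, and raised 13 and lowered 2 in control cells, beside 31.1% and 39.3% of all probe sets called. The factors raised in control cells include NFYB (0.22 ± 0.07), which lay below the lower quartile on 31 of the 38 arrays. IRF1, which activates immunoproteasome genes, rose by 1.71 ± 0.15 in knockdown cells and by 2.35 ± 0.14 in control cells. Of the NF-kB subunits, RELB rose by 1.94 ± 0.07 in knockdown and by 2.28 ± 0.07 in control cells, NFKB2 by 1.51 ± 0.07 and 2.09 ± 0.06, and NFKB1 by 1.66 ± 0.07 and 2.00 ± 0.06. NFE2L2 rose by 0.44 ± 0.07 in knockdown and by 0.49 ± 0.06 in control cells. NFE2L3 had a change of 0.23 ± 0.11 in knockdown cells without a call and rose by 0.65 ± 0.10 in control cells. NFE2L1, which drives the recovery of proteasome genes when the proteasome is inhibited, had a change of -0.07 ± 0.07 without a call in knockdown cells and of -0.15 ± 0.06 in control cells (adjusted p = 0.0459). Knockdown lowered NFE2L1 (-0.10 ± 0.04), its deglycosylating enzyme NGLY1 (-0.12 ± 0.03), IRF1 (-0.25 ± 0.08) and FOXO4 (-0.22 ± 0.07), and raised NFE2L3 (0.42 ± 0.06) and STAT3 (0.12 ± 0.02). No other factor of the 18 was called for knockdown, while 23.0% of all probe sets were.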

How the data were processed

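Affymetrix arrays of A549 RNA were read as the deposited table of 14488 probe sets by 38 arrays, with no missing value. The values are log2 expression levels deposited by the authors. Per the submitters' processing notes, Affymetrix Power Tools, RMA, limma 3.22.7 and build hg19 were used, with no role or order given. No further normalization was applied, and no detection values were used. Array medians ran from 8.02 to 8.19, and precision is limited by the number of arrays. Genes were named through the platform annotation, from probe sets with 1 symbol.

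With limma 3.58.1 in R 4.3.3, the 10 group means were fitted to every probe set, with Benjamini-Hochberg adjustment over all 14488 for each contrast and a threshold of 0.05. It was tested on simulated data. Pairs of genes within an array were compared by exact two-sided permutation tests. The array set was noticed in PSMB6 and then defined from probe sets outside the proteasome genes, as the most frequent division into 2 levels that splits replicates of a group, and enters as a fixed block. It and the contrasts of neighbouring hours were chosen after seeing the data.

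The genes named with values are the catalytic beta subunits, activators and inhibitor, the 4 highest and 4 lowest called changes of each mean contrast, the 2 highest and 2 lowest of each hour, and members of the companion lists. PSMC6, PSMA5, PSMD1, PSMD14, PSMG3, PSMB1, PSMB3, PSMB4, PSMA4, PSMA7, PSMD4, PSMD9, POMP, AKIRIN2, NFE2L1, NFE2L2 and the cell type markers were named after their values were seen. The members and lists were chosen with earlier results of these data known. Alternatives covered the normalization, a filter on dim probe sets, the variance model, array weights, covariates, blocks, the threshold and leaving out each array.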

Additional observations from a re-analysis of the deposited data

Results flagged for a closer look

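Among the 16 proteasome genes named by the rule above, 128 sets of 4 arrays were tested for an array that stands apart. By Dixon's test at the 95% level 5 were found. Chance alone gives about 1 in 20. PSMB6 was at 12.83 in control 10 h replicate 2, against 12.28 to 12.32 in the other arrays of that group. It was at 12.22 in control 4 h replicate 4, against 12.79 to 12.89 in the others. In knockdown 2 h replicate 2 it was at 12.63, against 12.07 to 12.12. PSMA6 was at 12.22 in control 10 h replicate 2, against 11.54 to 11.58. In these 4 cases the array was the only one of its array set in the group, which for PSMB6 follows from how the division was noticed. PSMD5 was at 10.35 in knockdown 8 h replicate 4, against 10.45 to 10.47 in the others.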

How the results depend on the processing

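In the mean contrasts, directions did not reverse under the alternatives for any gene checked, wherever the gene was called. The genes checked were the catalytic beta subunits, activators and inhibitor, with the 4 highest and 4 lowest called changes of the contrast in question. Other named genes, single hours and steps between neighbouring hours were not checked under all alternatives. In control cells, 1 gene was called down with IL1B, and 2 with quantile normalization, without probe sets below the median level, with a robust variance trend, with array weights, with the replicate block (fixed or random) and with the array set block with or without the replicate number. At an adjusted p under 0.01, 1 gene was down in knockdown cells, 6 were up in control cells and 0 were lower for knockdown. In knockdown cells 4 were down, in place of 2, with quantile normalization, with array weights and with the array set and replicate block together, which gave 16 up in control cells. With a covariate for small nucleolar RNA 7 genes were lower for knockdown, and with it or with quantile normalization 7 were up in control cells. In the first array set alone the median change with IL1B was 0.04 in knockdown cells and 0.12 in control cells, and -0.06 for knockdown. In the second set alone, which lacks control 8 h, these medians were 0.00, 0.05 and -0.02. Each set alone leaves some groups of 1 array. Without all arrays numbered 4, PSME1 in knockdown cells (0.21, adjusted p = 0.0646) and PSMC2 for knockdown (-0.12, adjusted p = 0.0853) lost their calls. The cause of these moves was not tested, and where arrays were left out the fit also held fewer arrays. Leaving out single arrays gave 4 to 5 genes up and 1 to 3 down in knockdown cells, with 1 down without knockdown 0 h replicate 1, and 7 to 11 up and 1 to 2 down in control cells. It gave 0 higher and 2 to 7 lower for knockdown, with 2 without control 8 h replicate 1 and 7 without control 2 h replicate 4, and 0 in the joint test. For PSMB10 minus PSMB7 it gave shifts of 1.11 to 1.26, 1.28 to 1.37, 0.75 to 0.88 and 0.76 to 0.90 at 2, 4, 8 and 10 h in knockdown cells, and of 0.98 to 1.13, 1.36 to 1.54, 0.83 to 1.08 and 0.81 to 0.96 in control cells. The exact test then cannot always reach 0.05. Replicate numbers were not taken to pair the samples. Deviations from group means correlated between arrays of both arms at 1 hour with a median of 0.15 for the same number (over 0.1 in 11 of 18 pairs) and of -0.02 for different numbers (14 of 54), and over any 2 groups with medians of 0.18 (107 of 162) and -0.06 (104 of 487). The fixed replicate block gave 4 up and 3 down in knockdown cells, 10 up in control cells and 5 lower for knockdown. PSMB10 and PSMD4 fell out with the filter on dim probe sets. A fit on 1 arm alone was made for the IL1B contrasts and could not be made for knockdown against control. Signal over background was not used here.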
